A study of Homo sapiens with 13 samples.

Results

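Kinesins are motor proteins that walk along microtubules or take them apart. Their genes were followed after knockdown of SOX9 or of Y14 in DLD-1, an established human cell line from a colorectal adenocarcinoma. The members were all gene symbols of the form KIF or KIFC with a number, plus CENPE, the kinetochore kinesin. This gave 43 genes of 23886 listed symbols. They were divided by known role into 16 mitotic kinesins, 10 kinesins of the cilium and 17 kinesins of transport and other roles. All cells received 50 nM of small interfering RNA (siRNA) and were harvested 72 h later, and polyadenylated RNA was sequenced. The samples were 4 with an siRNA against SOX9 (siSOX9) in experiments 1 and 2, 4 with an siRNA against Y14 (siY14) in experiment 3, 3 with a control siRNA (siCtrl) in experiments 1 and 2, and 2 siCtrl in experiment 3. The siY14 arm pools 2 siRNAs, numbered 9 and 10, with 2 samples each. Both comparisons rest on this 1 cell line, and the labels do not say whether replicates were separate cultures, so p-values measure only the spread between these samples. The title of the series asks how SOX9 acts on transcription and on splicing, and the values here are transcript levels only.

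Mitotic kinesins build the spindle, carry chromosomes to its middle, bundle its central microtubules and help the daughter cells to separate. Most of their transcripts peak in G2 and mitosis, and several of these motors are abundant in dividing tumour cells. Kinesins of the cilium carry material along the ciliary axis or set its length, and transport kinesins carry vesicles, mitochondria and endosomes, among them conventional kinesin, whose heavy chain is KIF5B in most tissues. SOX9, a transcription factor, is active at the base of intestinal crypts. Y14, encoded by RBM8A, belongs to the core of the exon junction complex that marks spliced mRNA. In these bulk samples, fewer cells of a kind and less RNA per cell cannot be told apart.

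The deposited values were mean normalised read counts per arm with the authors' DESeq p-values, 1 table per comparison. Whole reads per library were worked back from the 15 printed digits of the arm means, for 14402 of 18747 genes with reads in the siSOX9 table (76.8%) and for 14296 of 17706 with siY14 (80.7%). The libraries so found carry no sample name and are lettered from the deepest down. Their estimated depth was 24.8 to 184 M counts for the siSOX9 table and 47.2 to 71.6 M counts for the siY14 table. SOX9 itself averaged 9067 in siSOX9 cells and 24468 in siCtrl cells in the authors' deposited table (log2 fold change -1.43, adjusted p = 1.40e-04). RBM8A was listed at 0 in both tables, so the Y14 knockdown could not be checked. Of 8 colon epithelial markers, 8 had a mean of at least 10 in both tables. By the authors' DESeq test 1 of them, VIL1, fell with siSOX9, and 3, VIL1, CDH17 and CDH1, fell with siY14. Among all genes with a mean of at least 10, 3.11% fell and 1.58% rose with siSOX9, and 7.01% fell with siY14. Of 14 leukocyte, fibroblast and endothelial markers, 4 reached 10 in each table, of which 1 rose and 1 fell with siSOX9, both fibroblast markers, and none passed with siY14. In both tables the summed level of each of those lists was between 24.3 and 151 in every arm. Library a of both arms in the siSOX9 table deviated together from the arm means (r = 0.88 over 7145 genes). In the siY14 arm, library a deviated with c and b with d (r = 0.92 for each pair over 7839 genes). Libraries within these pairs are not independent, and p-values of the siY14 comparison may then be too small. Which siRNA each library had received is not known here.

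A mean normalised count of at least 10 was reached by 35 of the 43 kinesin genes in each table, 34 of them shared. KIF2B, a kinetochore depolymerase, and KIF12 were listed at 0 in both tables. KIF19, a depolymerase of motile cilia, and KIF6, another motor of motile cilia, were listed at 0 in the siY14 table, and both averaged under 10 in the siSOX9 table. KIF1A, KIF5A and KIF5C, known mainly from neurons, also averaged under 10 in both tables. Around that threshold, KIF5C averaged 7.61 and KIF7 averaged 13.96 over all siSOX9-table libraries, whereas KIF7 averaged 5.38 and KIF25 averaged 24.4 over all siY14-table libraries.

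Per kilobase of transcript, the level in siCtrl cells spanned several orders of size. In the siCtrl cells of the siY14 table KIF5B was highest with 6407 normalised counts per kb, followed by the chromosome-binding KIF22 with 3132, the spindle motor KIF11 with 2887, the centromere depolymerase KIF2C with 2785 and the centralspindlin motor KIF23 with 2626. The siCtrl cells of the siSOX9 table had KIF22 on top with 3784 and KIF5B next with 3112 normalised counts per kb. In both, KIF21B, a kinesin known from neurons and immune cells, and the atypical kinesins KIF26A and KIF26B were far lower. KIF21B had 67.9 normalised counts per kb in the siCtrl cells of the siY14 table, KIF26A had 26.8 and KIF26B had 24.2. KIF7 was lower still, with 1.15 normalised counts per kb in the same cells. Mitotic motors lay on both sides of the transport motors, since KIF14 had 362 and KIF15 had 392 normalised counts per kb, against 1547 for the transport motor KIF1C.

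After Y14 knockdown, 9 of the 39 kinesin genes with reads were past the threshold, an adjusted p of 0.05, of the authors' deposited table, 8 as lower and 1 as higher. Of all genes with reads in that table, 9.16% passed, 5.35% as lower and 3.81% as higher. Among genes with a mean of at least 10, the share was 9 of 35 kinesins, against 12.0% of all genes. The genes that fell were the mitotic KIF11, CENPE, KIF14, KIF20B and KIF23, the cilium gene KIF3A and the transport genes KIF21B and KIF5B, while KIF26A rose. The median log2 fold change in the authors' deposited table was -0.38 over 15 mitotic kinesins, 0.11 over 7 cilium kinesins and -0.14 over 13 transport kinesins, with -0.0012 over all 13444 genes with a mean of at least 10. By direction, 11 of 15 mitotic, 3 of 7 cilium and 9 of 13 transport kinesins had a log2 fold change below 0 in the authors' deposited table, against 50.1% of all genes.

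**Figure D1:**
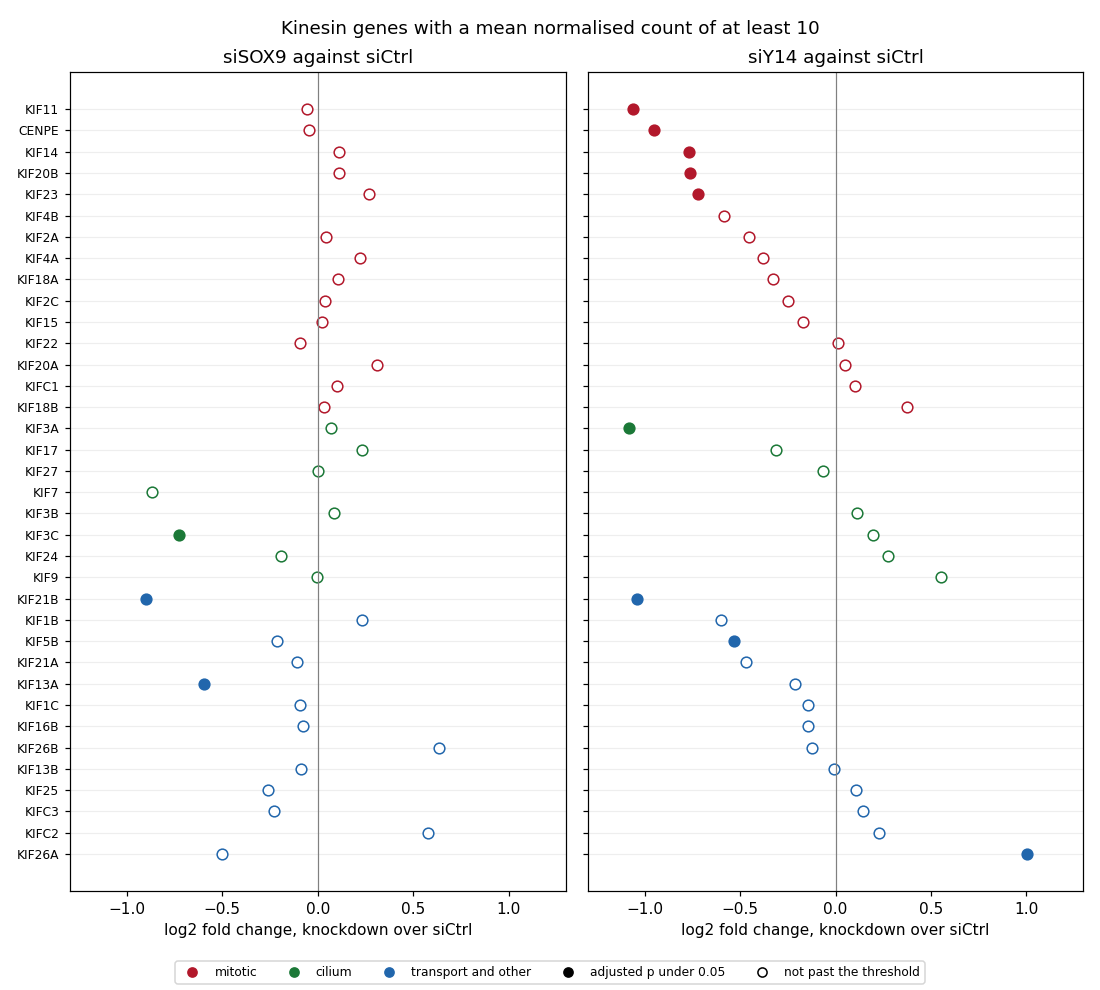
Log2 fold change (knockdown over siCtrl, horizontal axis) of each kinesin gene with a mean of at least 10, from the authors' deposited tables, siSOX9 on the left and siY14 on the right; colour gives the class and filled points passed an adjusted p of 0.05. With siY14 the 5 filled mitotic genes lie between -1.06 and -0.72, whereas with siSOX9 the same genes lie between -0.06 and 0.27 and the filled genes are KIF21B, KIF3C and KIF13A.

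Of the mitotic kinesins, 5 of 15 with reads fell with siY14. KIF11, the plus-end motor also called Eg5 that slides the spindle poles apart, fell most. Its mean was 6718 normalised counts in siY14 cells and 14029 in siCtrl cells of the authors' deposited table (log2 fold change -1.06, adjusted p = 9.18e-08). Single siY14 libraries could not be worked back for KIF11, while its siCtrl libraries stood at 14019 and 14040. CENPE, which brings chromosomes to the metaphase plate, had 2087, 1678, 2031 and 1580 normalised counts in siY14 libraries a to d, against 3587 and 3539 in siCtrl libraries a and b. No siY14 library reached either siCtrl library. The means were 1844 ± 252 in siY14 cells (SD, n = 4) and 3563 ± 34.4 in siCtrl cells (SD, n = 2), and the log2 fold change in the authors' deposited table was -0.95 (adjusted p = 5.85e-06).

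3 of the genes that fell act at the central spindle or in cytokinesis. KIF14, a midbody motor that binds citron kinase and PRC1, had 1678, 1486, 1572 and 1451 normalised counts in the siY14 libraries, against 2593 and 2676 in the siCtrl libraries. KIF20B, a motor of late cytokinesis, had 5813, 4575, 5709 and 4409 in the siY14 libraries, against 8992 and 8425 in the siCtrl libraries. For both genes every siY14 library lay below every siCtrl library. The log2 fold changes in the authors' deposited table were -0.77 for KIF14 (adjusted p = 6.99e-04) and -0.76 for KIF20B (adjusted p = 4.05e-04). KIF23, the motor subunit of centralspindlin, averaged 5929 in siY14 cells and 9777 in siCtrl cells of the authors' deposited table (log2 fold change -0.72, adjusted p = 0.0252). Its siCtrl libraries stood at 9810 and 9744, and its siY14 libraries could not be worked back.

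The other 10 mitotic kinesins did not pass the threshold with siY14. Their log2 fold changes in the authors' deposited table ran from -0.58 for KIF4B to 0.38 for KIF18B, which shortens astral microtubules, with adjusted p-values of 0.114 and above. KIF18A, which dampens chromosome oscillation, had 2408, 2400, 2353 and 2375 normalised counts in the siY14 libraries, against 3034 and 2960 in the siCtrl libraries. Those groups did not overlap, as was so for 61.7% of all genes with reads per library and a mean of at least 10. The siY14 libraries spanned a narrow range, but 2 sets of reads were possible, and the choice used how libraries spread in other genes. KIF18A missed the threshold in the authors' deposited table (log2 fold change -0.33, adjusted p = 0.225) and passed in limma-voom on reads per library (-0.33 ± 0.05 SE, adjusted p = 0.0112). With libraries a and c, and b and d, as sets that share a correlation, a limma-voom fit added after seeing the data, its adjusted p was 0.0469. KIF20A, which carries the chromosomal passenger complex, averaged 7157 in siY14 cells and 6905 in siCtrl cells of the authors' deposited table. KIFC1, the minus-end motor that clusters centrosomes, averaged 6343 in siY14 cells and 5914 in siCtrl cells there. The chromokinesin KIF4A had 3313, 2592, 3436 and 2562 normalised counts in the siY14 libraries, against 3919 and 3821 in the siCtrl libraries, with no overlap (authors' deposited table, log2 fold change -0.38, adjusted p = 0.141). KIF4B is an intronless copy of KIF4A, and reads of the pair could be exchanged. It averaged 62.2 in siY14 cells and 93.3 in siCtrl cells of the siY14 table but 2.72 in siSOX9 cells and 1.71 in siCtrl cells of the siSOX9 table, so its value is uncertain.

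The promoters of mitotic genes are known for a cell-cycle homology region (CHR) and CCAAT boxes, the elements through which such genes are kept off in G1 and switched on in G2. Windows from 250 bases before to 50 bases after the annotated start were taken from RefSeq (GRCh38.p14), which matched 35 of the 43 kinesin genes. The windows of the mitotic genes that fell are shown because those genes passed the threshold as lower with siY14, and KIF20A is shown as a mitotic kinesin that missed it. Capitals mark the CHR (TTTGAA, or TTCAAA on the other strand) and the CCAAT box (CCAAT, or ATTGG on the other strand), each 5′ to 3′ on the gene's strand.
KIF11, chr10:92592880-92593179, plus strand: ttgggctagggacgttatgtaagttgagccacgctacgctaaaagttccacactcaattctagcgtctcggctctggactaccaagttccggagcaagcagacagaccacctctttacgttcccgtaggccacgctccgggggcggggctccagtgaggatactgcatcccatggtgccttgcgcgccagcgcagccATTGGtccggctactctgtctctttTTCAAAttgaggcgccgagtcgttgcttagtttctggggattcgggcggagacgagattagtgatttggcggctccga
KIF14, chr1:200620702-200621001, minus strand: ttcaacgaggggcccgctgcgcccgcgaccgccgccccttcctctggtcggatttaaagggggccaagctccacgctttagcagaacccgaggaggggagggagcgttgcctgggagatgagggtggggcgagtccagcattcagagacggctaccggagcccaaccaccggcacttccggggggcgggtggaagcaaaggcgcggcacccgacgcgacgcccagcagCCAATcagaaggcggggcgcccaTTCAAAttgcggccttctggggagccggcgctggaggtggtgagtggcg
KIF20B, chr10:89701340-89701639, plus strand: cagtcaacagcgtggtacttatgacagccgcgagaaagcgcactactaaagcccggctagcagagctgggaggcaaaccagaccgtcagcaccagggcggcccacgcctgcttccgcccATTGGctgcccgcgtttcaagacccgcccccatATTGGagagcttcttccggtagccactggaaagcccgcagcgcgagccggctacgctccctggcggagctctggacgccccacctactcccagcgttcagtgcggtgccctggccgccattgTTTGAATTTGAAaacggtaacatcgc
KIF23, chr15:69414099-69414398, plus strand: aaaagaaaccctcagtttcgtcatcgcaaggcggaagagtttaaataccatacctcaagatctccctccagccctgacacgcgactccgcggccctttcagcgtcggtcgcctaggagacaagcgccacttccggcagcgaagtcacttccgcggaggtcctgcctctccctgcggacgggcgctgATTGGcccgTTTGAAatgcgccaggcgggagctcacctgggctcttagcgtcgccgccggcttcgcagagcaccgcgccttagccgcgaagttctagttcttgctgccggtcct
KIF20A, chr5:138178862-138179161, plus strand: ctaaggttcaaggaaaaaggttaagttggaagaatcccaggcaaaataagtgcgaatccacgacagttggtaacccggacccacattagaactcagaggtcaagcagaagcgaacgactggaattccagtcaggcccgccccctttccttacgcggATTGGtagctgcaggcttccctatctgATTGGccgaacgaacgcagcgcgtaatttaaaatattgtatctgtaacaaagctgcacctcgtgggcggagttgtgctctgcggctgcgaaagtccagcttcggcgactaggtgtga
CENPE, chr4:103198294-103198593, minus strand: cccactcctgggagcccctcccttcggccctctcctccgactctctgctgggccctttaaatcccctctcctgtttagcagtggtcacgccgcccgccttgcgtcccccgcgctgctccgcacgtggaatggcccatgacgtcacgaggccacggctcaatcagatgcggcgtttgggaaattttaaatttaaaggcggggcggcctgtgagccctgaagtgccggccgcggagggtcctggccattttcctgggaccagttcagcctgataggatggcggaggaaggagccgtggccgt
The CHR letters were found in 10 of 16 mitotic, 0 of 8 cilium and 1 of 11 transport kinesin windows, and in 15.2% of all 35116 windows of that length. CCAAT letters were found in 11 of 16 mitotic, 3 of 8 cilium and 3 of 11 transport windows, and in 34.6% of all windows. An E2F-like motif (TTCCCGC, or GCGGGAA on the other strand) was found in 0 of 16 mitotic, 1 of 8 cilium and 2 of 11 transport windows, and in 6.55% of all windows. No matches overlap in the windows shown. KIF11 carries its CHR 28 bases before the start and its CCAAT box 53 bases before it, KIF23 its CHR at 55 and its CCAAT box at 64 bases before the start, and KIF20B a CHR written 2 times in tandem from base 25 after the start. Among mitotic kinesins measured with siY14, the CHR letters occurred in 4 of the 5 that fell and in 6 of the 10 that did not pass. CENPE fell with none of these motifs in its window, and KIF20A, with 2 CCAAT boxes and no CHR, did not pass. A match describes letters only.

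Partners of the mitotic kinesins were looked up as a list of 24 spindle, kinetochore and cytokinesis genes. With siY14, 7 of 24 fell and 0 rose by the authors' DESeq test, against 7.01% of all genes with a mean of at least 10 as lower and 4.99% as higher. At an unadjusted p under 0.05, 11 partners were lower and 0 higher. Their median log2 fold change was -0.38, against -0.0012 over all genes. ASPM, a spindle-pole protein, averaged 3650 in siY14 cells and 7564 in siCtrl cells (authors' deposited table, log2 fold change -1.05, adjusted p = 1.50e-07). PRC1, which bundles the central spindle and works with KIF4A and KIF14, fell by 0.75 (log2, authors' deposited table, adjusted p = 5.83e-04). BUB1, a checkpoint kinase of the kinetochore, fell by 0.70 (log2, authors' deposited table, adjusted p = 0.00150). RACGAP1, the partner of KIF23 in centralspindlin, fell by 0.51 (log2, authors' deposited table, adjusted p = 0.0330). ANLN, CKAP5 and NUF2 also fell. Not every regulator of mitosis followed, since PLK1 averaged 9913 in siY14 cells and 9459 in siCtrl cells of the authors' deposited table (log2 fold change 0.07, adjusted p = 0.948).

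General proliferation genes and regulators of mitotic transcription were looked up beside these partners. Of 12 proliferation markers 1, TOP2A, fell with siY14 in the authors' deposited table (log2 fold change -0.48, adjusted p = 0.0480), and the list's median was -0.28. Among 12 subunits and regulators of the DREAM, B-MYB and FOXM1 complexes 1, RBL2 (p130), fell by 0.71 (log2, authors' deposited table, adjusted p = 0.00277), and the list's median was 0.12. MYBL2 averaged 10768 in siY14 cells and 8663 in siCtrl cells of the authors' deposited table (adjusted p = 0.286). With siSOX9, the authors' DESeq test called 0 of these 12 complex genes, with 1 at an unadjusted p under 0.05. With siY14, 7.01% of all genes with a mean of at least 10 fell. The 1 of 12 that fell in each list was near that share. The difference between the lists was not tested.

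Outside mitosis, KIF3A and KIF21B fell furthest with siY14. KIF3A is a motor subunit of the heterotrimeric kinesin-2 of intraflagellar transport. It had 1375, 1027, 1334 and 991 normalised counts in the siY14 libraries, against 2540 and 2458 in the siCtrl libraries, with no overlap (authors' deposited table, log2 fold change -1.08, adjusted p = 1.44e-07). Its partner KIF3B averaged 8959 in siY14 cells and 8284 in siCtrl cells of the authors' deposited table (log2 fold change 0.11, adjusted p = 0.872). The other partner, KIF3C, had 921, 930, 902 and 995 normalised counts in the siY14 libraries, against 828 and 805 in the siCtrl libraries. All siY14 libraries of KIF3C were higher than both siCtrl libraries, yet the gene missed the threshold (authors' deposited table, log2 fold change 0.20, adjusted p = 0.635). Of KIF3A, KIF3B and KIF3C, then, KIF3A alone passed, and the KIF3A mean in siY14 cells was 0.473 of that in siCtrl cells.

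KIF21B had 328, 293, 345 and 338 normalised counts in the siY14 libraries, against 688 and 655 in the siCtrl libraries. The groups were well apart (authors' deposited table, log2 fold change -1.04, adjusted p = 4.43e-06). Its relative KIF21A, which restrains microtubule growth at the cell cortex, had 3511, 2653, 3497 and 2621 normalised counts in the siY14 libraries, against 4351 and 4158 in the siCtrl libraries. KIF21A lay just outside the threshold in the authors' deposited table (log2 fold change -0.47, adjusted p = 0.0532). KIF5B, the most abundant transport motor, averaged 26034 in siY14 cells and 37655 in siCtrl cells of the authors' deposited table (log2 fold change -0.53, adjusted p = 0.0239). Its siCtrl libraries stood at 37672 and 37637. KIF1B, a carrier of mitochondria, averaged 8687 in siY14 cells and 13186 in siCtrl cells and did not pass (authors' deposited table, log2 fold change -0.60, adjusted p = 0.0952).

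KIF26A, an atypical kinesin without ATPase activity, was the kinesin that rose with siY14. It had 316, 403, 293 and 432 normalised counts in the siY14 libraries, against 183 and 177 in the siCtrl libraries. Every siY14 library lay above both siCtrl libraries (authors' deposited table, log2 fold change 1.01, adjusted p = 0.00464). Its relative KIF26B had 176, 136, 164 and 170 normalised counts in the siY14 libraries, against 168 and 184 in the siCtrl libraries, and the groups overlapped.

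**Figure D2:**
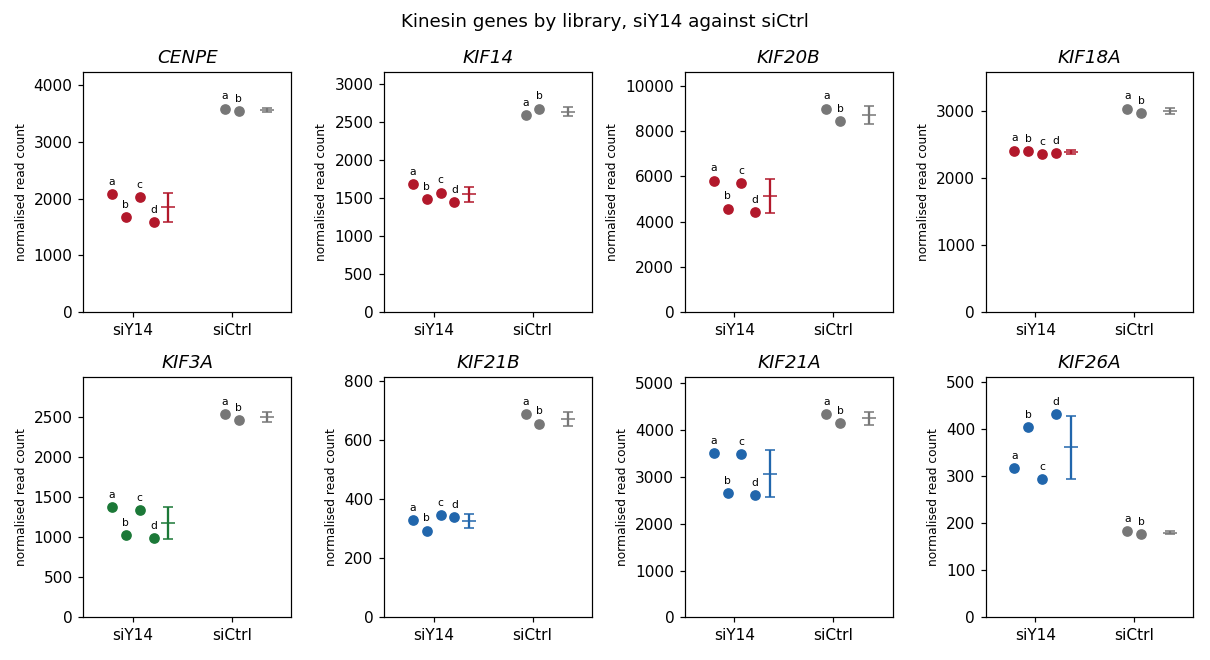
Normalised read count (vertical axis, from 0) of 8 kinesin genes in each siY14 library (left, letters a to d) and each siCtrl library (right, a and b); bars give the mean and SD of each group. Every siY14 library lies below both siCtrl libraries for 7 genes and above them for KIF26A. Libraries a and c lie together, as do b and d, for CENPE, KIF20B, KIF3A, KIF21A and KIF26A. Of these, KIF3A and KIF26A had 1 possible set of siY14 reads, CENPE 2, KIF21A 8 and KIF20B 51. Where several sets were possible, the choice used how libraries deviate together in other genes.

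Over all kinesins with reads per library and a mean of at least 10, the groups did not overlap for 13 of 23 genes with siY14, 11 below and 2 above the siCtrl libraries. Among all such genes 61.7% did not overlap, 30.4% below and 31.3% above. The total was thus no larger than the background, with more kinesins below and fewer above than that split. In limma-voom, 8 of these 23 kinesins passed, against 24.3% of all genes. They were CENPE, KIF14, KIF18A, KIF20B, KIF21A, KIF21B, KIF26A and KIF3A. With libraries a and c, and b and d, as sets that share a correlation (0.88), a fit added after seeing the data, the same 8 passed, against 13.6% of all genes. Without either siCtrl library in turn, limma-voom called 0 of 23 kinesins and 2 of 10035 genes, with 7 and 8 kinesins at an unadjusted p under 0.05. The lone siCtrl library was then assumed to vary like the siY14 libraries. The log2 fold changes of CENPE, KIF14, KIF20B, KIF21B, KIF26A and KIF3A kept their direction. That was fixed in advance, because the groups of these genes do not overlap, and it adds no support.

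The siY14 libraries also differed among themselves in some kinesins. KIF9, a motor of motile cilia, had 441, 916, 434 and 879 normalised counts in siY14 libraries a to d, against 483 and 426 in the siCtrl libraries. Libraries b and d stood high and libraries a and c stood with the siCtrl libraries, and the gene missed the threshold (authors' deposited table, log2 fold change 0.56, adjusted p = 0.642). KIF9 overlaps an antisense gene, KIF9-AS1, and the sources used here do not say whether counting used strand. The centriolar KIF24 had 1241, 1744, 1292 and 1604 normalised counts in the siY14 libraries, against 1263 and 1170 in the siCtrl libraries, with the same libraries b and d on top.

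Base composition moved with the siY14 fold changes. Over 35 kinesins, the log2 fold change in the siY14 table correlated with the GC content of the transcript (GENCODE 29) at Pearson r = 0.64 and Spearman rho = 0.67, and over the 15 mitotic kinesins at r = 0.83 and rho = 0.78. Over 11812 genes with a mean of at least 10, r was 0.46 and rho 0.49. These are descriptions across genes, which share their libraries, and carry no p. The 5 mitotic genes that fell had a GC content of 34.2% to 42.3% (median 38.3%), and the 10 that did not pass had 37.0% to 58.4% (median 47.4%). The transcripts that fell were also longer, with 3723 to 8612 bases (median 6419), against 2113 to 4842 bases (median 3464). KIF21B, at 59.7% GC, fell against this trend, and KIF26A, which rose, had 68.3% GC. With siSOX9, r was -0.19 over 35 kinesins and -0.04 over 11984 genes. When the trend over all genes in GC content and length was taken out of the siY14 values, a step added after seeing the data, the median of the mitotic kinesins was -0.25 and that of the transport kinesins -0.23, against -0.38 and -0.14 before, so the gap between these classes nearly closed. The cilium median was then 0.17, against 0.11 before, and stayed above both. With the trend removed, KIF11 had -0.80, CENPE -0.62, KIF23 -0.54, KIF14 -0.49 and KIF20B -0.44. Outside mitosis, KIF21B then had -1.24, KIF3A -0.80, KIF5B -0.27 and KIF26A 0.50. The part of GC content and length in these results was not tested.

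**Figure D3:**
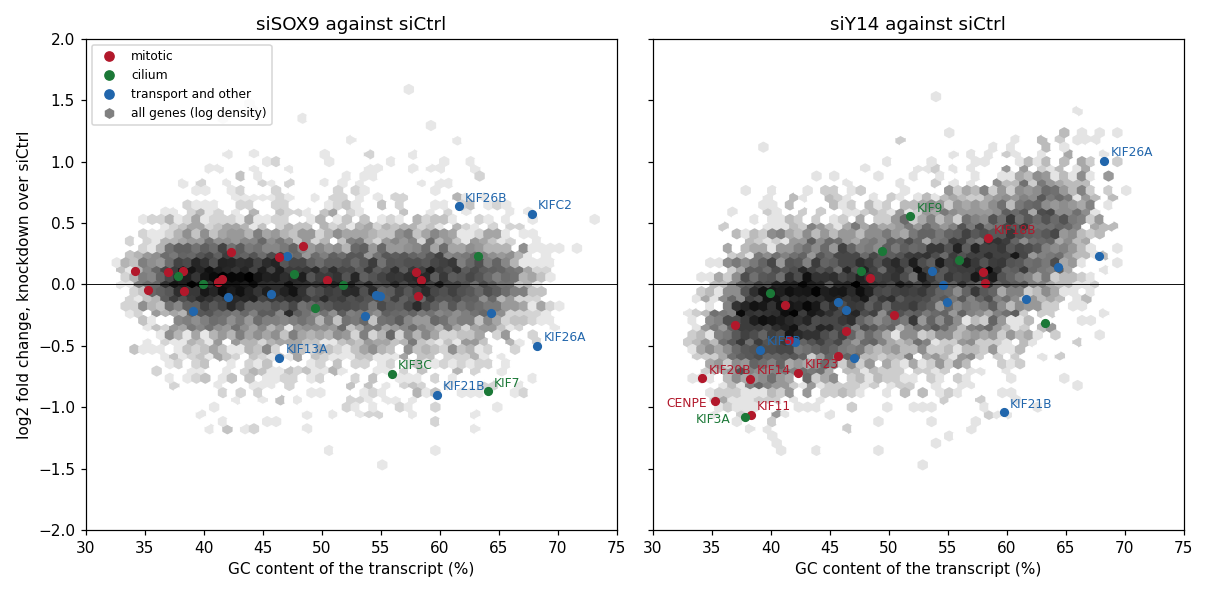
Log2 fold change (knockdown over siCtrl, vertical axis) of each kinesin gene against the GC content of its transcript in percent, siSOX9 on the left and siY14 on the right, over the density of all genes in grey (log scale). With siY14 the lowest points are KIF3A at -1.08, KIF11 at -1.06, KIF21B at -1.04 and CENPE at -0.95, of which KIF21B has a high GC content and the others a low one; with siSOX9 no such slope is seen among 35 kinesins (r = -0.19).

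With SOX9 knockdown a few kinesins outside mitosis fell. Of 41 kinesins with reads, 3 passed in the authors' deposited table, all as lower, namely KIF21B, KIF3C and KIF13A. Of all genes with reads there, 3.47% passed, 2.27% as lower and 1.19% as higher. Among genes with a mean of at least 10, the share was 3 of 35 kinesins, against 4.69% of all genes, 3.11% as lower and 1.58% as higher. The median log2 fold change in the authors' deposited table was 0.07 over 14 mitotic, -0.0015 over 8 cilium and -0.11 over 13 transport kinesins, with 0.01 over all 13649 genes with a mean of at least 10.

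KIF21B had 455, 504, 445 and 385 normalised counts in siSOX9 libraries a to d, against 805, 949 and 749 in siCtrl libraries a to c. Every siSOX9 library lay below every siCtrl library. The means were 447 ± 48.7 in siSOX9 cells (SD, n = 4) and 835 ± 103 in siCtrl cells (SD, n = 3), and the log2 fold change in the authors' deposited table was -0.90 (adjusted p = 7.62e-04). KIF21B was the kinesin that passed in both tables, 1 of the 3 called with siSOX9 and 1 of the 9 called with siY14. KIF3C, the KIF3A partner, had 426, 452, 490 and 400 normalised counts in the siSOX9 libraries, against 725, 789 and 683 in the siCtrl libraries, with no overlap (authors' deposited table, log2 fold change -0.73, adjusted p = 0.00569). KIF3A averaged 1777 ± 127 in siSOX9 cells (SD, n = 4) and 1695 ± 177 in siCtrl cells (SD, n = 3), within that spread. KIF13A, a carrier of recycling endosomes, had 1198, 1129, 1314 and 1123 normalised counts in the siSOX9 libraries, against 1820, 1825 and 1758 in the siCtrl libraries, again with no overlap (authors' deposited table, log2 fold change -0.60, adjusted p = 0.0305).

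The atypical pair KIF26A and KIF26B lay on opposite sides with siSOX9, and both missed the threshold of the authors' deposited table. KIF26A had 294, 357, 323 and 294 normalised counts in the siSOX9 libraries, against 440, 468 and 438 in the siCtrl libraries (authors' deposited table, log2 fold change -0.50, adjusted p = 0.153). KIF26B had 196, 148, 249 and 191 normalised counts in the siSOX9 libraries, against 133, 118 and 127 in the siCtrl libraries (authors' deposited table, log2 fold change 0.64, adjusted p = 0.397). For neither gene did the groups overlap. In limma-voom on reads per library both passed, KIF26A with -0.52 ± 0.10 (SE, adjusted p = 0.00905) and KIF26B with 0.58 ± 0.17 (SE, adjusted p = 0.0428). KIF26A kept its call without any library in turn, whereas KIF26B passed in 1 of 7 such fits, with adjusted p-values of 0.0206 to 0.120. In all, limma-voom called 5 of 20 kinesins with siSOX9, against 18.6% of all genes, and non-overlapping groups were seen for 6 of 20, against 29.1% of all genes. Without library a of both arms, which stand apart, limma-voom called 6 of 20, namely those 5 and KIFC3, against 30.6% of all genes. With library a of both arms as a term, a fit added after seeing the data, it called 10 of 20, against 49.9% of all genes. KIF7, KIF14, KIF18A, KIF24 and KIFC3 were then added to the 5.

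KIF7, a regulator of Hedgehog signalling at the ciliary tip, was near the lower limit of measurement. It had 10.1, 14.8, 10.1 and 6.22 normalised counts in the siSOX9 libraries, against 18.9, 23.2 and 14.5 in the siCtrl libraries, and the highest siSOX9 library exceeded the lowest siCtrl library (authors' deposited table, log2 fold change -0.87, adjusted p = 0.8289). KIFC2 averaged 3494 in siSOX9 cells and 2343 in siCtrl cells (authors' deposited table, log2 fold change 0.58, adjusted p = 0.717), and its siCtrl libraries spread from 1612 to 3053.

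No mitotic kinesin passed with siSOX9 in the authors' deposited table. The authors' DESeq test called 0 of 14, with 0 at an unadjusted p under 0.05, and limma-voom called 0 of 4 with reads per library, again with 0 at an unadjusted p under 0.05. With library a of both arms as a term, limma-voom called KIF14 (0.17 ± 0.05 SE, adjusted p = 0.00863) and KIF18A (0.14 ± 0.05 SE, adjusted p = 0.0266), both higher in siSOX9 cells. The 14 log2 fold changes in the authors' deposited table ran from -0.09 for KIF22 to 0.31 for KIF20A. KIF11 averaged 7632 in siSOX9 cells and 7934 in siCtrl cells of the authors' deposited table (log2 fold change -0.06). CENPE had 2438, 2066, 2197 and 2354 normalised counts in the siSOX9 libraries, against 2397, 2156 and 2464 in the siCtrl libraries, and the groups overlapped throughout. KIF14 had 2113, 1401, 1623 and 1567 normalised counts in the siSOX9 libraries, against 1821, 1320 and 1511 in the siCtrl libraries, with library a of each group highest and the groups overlapping. KIF20B averaged 5693 in siSOX9 cells and 5266 in siCtrl cells, and KIF23 averaged 7514 in siSOX9 cells and 6242 in siCtrl cells of the authors' deposited table. Of the 24 partners of the mitotic kinesins, 0 passed with siSOX9 by the authors' DESeq test, with 1 at an unadjusted p under 0.05, and their median log2 fold change was 0.13. Among 12 proliferation markers 1, RRM2, rose with siSOX9 (authors' deposited table, log2 fold change 0.68, adjusted p = 0.00933). Of all genes with a mean of at least 10, 1.58% rose and 3.11% fell with siSOX9.

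**Figure D4:**
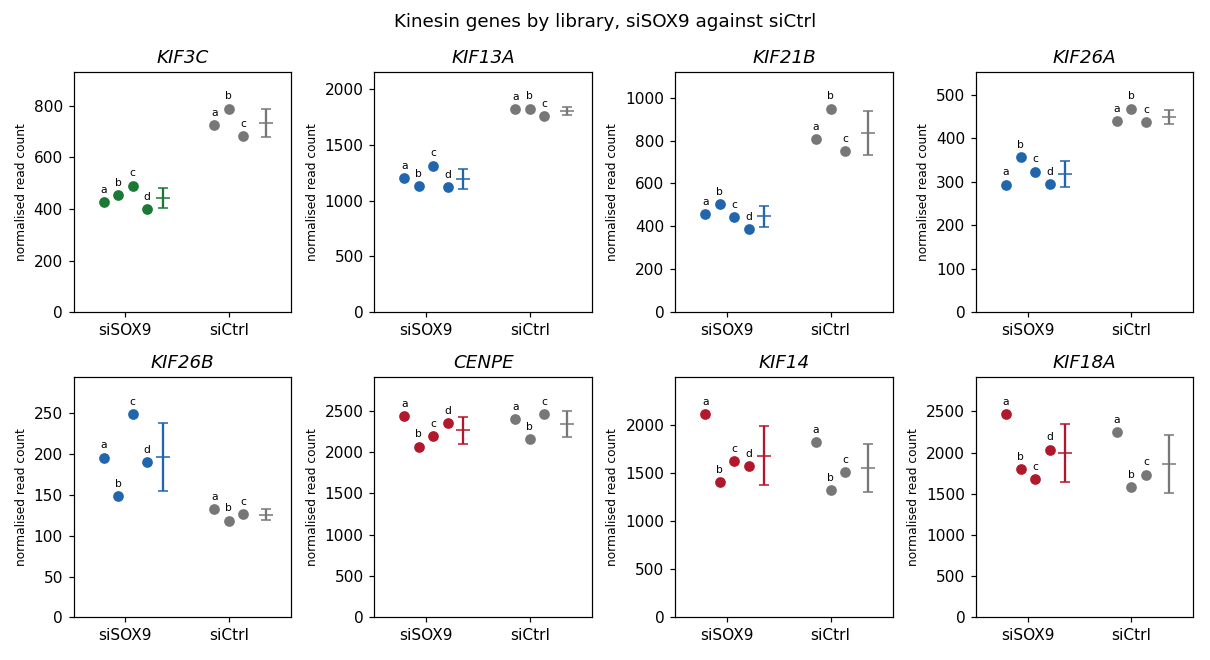
Normalised read count (vertical axis, from 0) of 8 kinesin genes in each siSOX9 library (left, letters a to d) and each siCtrl library (right, a to c); bars give the mean and SD of each group. Every siSOX9 library lies below every siCtrl library for KIF3C, KIF13A, KIF21B and KIF26A and above for KIF26B, while the groups overlap for the mitotic CENPE, KIF14 and KIF18A.

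Cargo adaptors and the minus-end motor were looked up as well. Among all genes with a mean of at least 10, 4.69% passed with siSOX9 and 12.0% with siY14, and the counts of both lists were near or under those shares. Of 20 measured kinesin light chains and cargo adaptors 1, FEZ2, fell with siSOX9 in the authors' deposited table (log2 fold change -0.81, adjusted p = 3.68e-04). With siY14 2 rose and 1 fell, in that RHOT2, which links motors to mitochondria, rose by 0.61 and PLEKHM2, which links kinesin-1 to lysosomes, rose by 0.62 (log2), while DENND4C fell by 0.66, all in the authors' deposited table (adjusted p = 0.0138, 0.0264 and 0.00516). KLC1, a light chain of KIF5B, averaged 7840 in siY14 cells and 8026 in siCtrl cells of the authors' deposited table. Among 24 measured subunits and regulators of dynein 1 and dynactin, 1, the intermediate chain DYNC1I1, rose with siSOX9, with 263 in siSOX9 cells and 102 in siCtrl cells (authors' deposited table, log2 fold change 1.37, adjusted p = 1.50e-06). In the same list 1, the light chain DYNLT3, fell with siY14, with 1954 in siY14 cells and 4436 in siCtrl cells (authors' deposited table, log2 fold change -1.18, adjusted p = 0.00917). Medians of both lists lay between -0.15 and 0.08 in both tables.

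The knockdown effects were then set against each other in a joint limma-voom model of all 13 libraries, each table with its own siCtrl libraries. The model treated all libraries as independent, although some deviate together, so its p-values may be too small. Among 19 kinesins with reads per library in both tables, the siY14 and siSOX9 effects differed for 5, against 20.5% of all genes. The siY14 effect minus the siSOX9 effect was -0.92 ± 0.14 for CENPE (SE, adjusted p = 0.00106) and -0.88 ± 0.21 for KIF14 (SE, adjusted p = 0.0113). For KIF3A it was -1.18 ± 0.17 (SE, adjusted p = 7.33e-04), and for KIF3C it was 0.93 ± 0.13 (SE, adjusted p = 6.10e-04), so these partners differed in opposite directions. For KIF26A the difference was 1.496 ± 0.220 (SE, adjusted p = 7.12e-04). KIF21B, which fell in both tables, differed by -0.18 ± 0.16 (SE, adjusted p = 0.477), which does not show that its effects are equal. KIF26B differed by -0.71 ± 0.24 and missed the threshold (SE, adjusted p = 0.0519), as did KIF13A with 0.37 ± 0.18 (SE, adjusted p = 0.162). KIF11, KIF20B and KIF23 had no joint test, because reads per library were not worked back in both tables. The knockdowns were made in different experiments, and the experiment and the knockdown cannot be told apart in these differences.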

How the data were processed

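RNA-seq was done on 13 samples, and the kinesin genes were read from 2 deposited comparison tables, which the authors made with DESeq. Per the submitters' processing notes the authors used HTSeq, DESeq, SAMtools, TopHat2, HISAT2 and Bowtie and the build hg19, with settings and strand counting not given in the sources used here. Per the file headers, each table holds means over all libraries and per arm, a signal that the authors made by dividing each library's read counts by its size factor. Per the file headers it also holds the p-value, the adjusted p-value and the log2 of the fold change, the ratio of both arm means, and these authors' values with a threshold of 0.05 are the main results. The arm named B was taken as the knockdown from the weights of the overall mean, 4 of 7 and 4 of 6 libraries. The tables were normalised separately, so levels were not compared between them, except for KIF4B, whose value was called uncertain because it differed widely between them.

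Members, lists, motifs and the naming rule were chosen with earlier results of these data known. Named genes were all kinesins past the threshold in either table, KIF11, KIF14, KIF20B and KIF26A, all with a mean of at least 10 and an absolute log2 fold change of at least 0.5, and up to 4 genes per list with the lowest adjusted p; others named were chosen after their values were seen. Partner lists were kinesin light chains and adaptors, dynein and dynactin, mitotic partners, proliferation, DREAM, B-MYB and FOXM1, and markers of colon epithelium, leukocytes, fibroblasts and endothelium.

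The plan assumed counts, which the tables do not hold per library. Each arm mean is a sum of whole reads times the value of 1 read, so sets of reads giving the printed mean were listed. Up to a mean of 600 the set was accepted where it was the only one possible. Above that, libraries had to lie between 0.25 and 4 times the mean and a set needed a posterior share of 0.999 under a spread model learnt from lower genes; arms of 4 libraries were tried up to 10000. The details were set after seeing the tables. Tested on simulated means, in arms of 4 libraries 0 of 800 accepted sets up to 600 were wrong, 1 of 734 from 600 to 3000 and 0 of 117 from 3000 to 10000, where 800 were simulated and the others were not accepted. In arms of 2 or 3 libraries 0 of 800 were wrong in each range. The simulated spreads were drawn from the same lower genes that the spread model was learnt from. The simulation therefore cannot show errors for genes above 600 whose libraries spread otherwise. SDs above 600 may be too small, since wide spreads were refused. The spread model also holds how libraries of an arm deviate together, so sets chosen with it tend to carry that pairing.

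Where the mean was at least 10, reads were tested with limma 3.58.1 (voom, R 4.3.3), library sizes taken from the size factors that the tables imply, and p-values adjusted by Benjamini-Hochberg over 9304 (siSOX9) and 10035 (siY14) genes. On simulated reads the siSOX9 design gave 205 calls with 11 false, finding 89 of 95 changes of 2-fold and 105 of 105 of 4-fold. The siY14 design gave 194 calls with 6 false, finding 90 of 101 and 98 of 99. These reads were drawn independently per library, with the same dispersion for every gene. They hold no libraries that deviate together, so they do not give the share of false calls in the real tests. Transcript length and GC content come from GENCODE 29, from the longest transcript with at least 90% of the gene's longest coding length. Alternatives were the genes adjusted over, limma-voom, TMM factors, leaving out libraries, low-value filters, pseudocounts, centring and the class of KIF2A; removal of the GC and length trend and terms for libraries that deviate together were added after seeing the data. Of per-sample columns, 0 were unused.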

Additional observations from a re-analysis of the deposited data

Results flagged for a closer look

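In 5 of 19 kinesin genes the knockdown effects differed by the test of the difference itself, in the joint limma-voom model of both tables. Of all genes in that model, 20.5% differed. The siY14 effect minus the siSOX9 effect on the log2 scale was -0.92 for CENPE (adjusted p = 0.00106), -0.88 for KIF14 (adjusted p = 0.0113), -1.18 for KIF3A (adjusted p = 7.33e-04), 0.93 for KIF3C (adjusted p = 6.10e-04) and 1.496 for KIF26A (adjusted p = 7.12e-04). Each direction was shown by every siY14 library against its siCtrl libraries. For KIF3C and KIF26A every siSOX9 library also showed the opposite direction against its own siCtrl libraries. Among all genes with reads per library and a mean of at least 10, 61.7% did not overlap with siY14 and 29.1% with siSOX9. The joint model used these same libraries, so the lack of overlap is not separate support. For CENPE, KIF14 and KIF3A the siSOX9 libraries overlapped their siCtrl libraries. Knockdown and experiment cannot be told apart in these differences. The joint model treated all libraries as independent, although some deviate together, so its p-values may be too small. No kinesin had a library far from the others of its arm, among the 43 arms of 4 libraries tested.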

How the results depend on the processing

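In 58 alternatives the counts of called kinesins stayed within 1.5 times and the class medians within the spread, while 4 other alternatives moved them. In all, 0 called results reversed. The cilium median with siSOX9 was near 0 and changed sign, with 0.016 against -0.0015 when the GC and length trend was removed. The kinesins with reads per library called with siSOX9 numbered 5 in limma-voom, against 3 in the authors' deposited table. Among genes with a mean of at least 10, limma-voom called 18.6% of those with reads per library and the deposited test 4.69%. With siY14, limma-voom called 0 to 10 kinesins when each library was left out in turn, against 8 with all, while the share of all genes called ran between 0.020% and 30.4%; the 0 came without siCtrl library a or b, where only 1 siCtrl library was left. Adjusting the authors' p-values over genes with a mean of at least 10 called 10 kinesins with siY14, with KIF21A added, against 9, and 3 with siSOX9. Of the values for single genes, 347 stayed the same in direction and call, 19 gained a call, 12 lost it without a siCtrl library and 9 values of genes not called in that table changed sign. With that trend removed, a step chosen after seeing the data, the siY14 medians were -0.25 against -0.38 for mitotic and -0.23 against -0.14 for transport kinesins. For cilium kinesins the siY14 median was 0.17 against 0.11. With library a of both arms as a term, also added, 10 of 20 kinesins were called with siSOX9, against 5 without it. Of all genes, 49.9% were called with that term and 18.6% without it. No paired analysis was possible because the arm means carry no replicate number; the libraries that deviate together were told from the data and carry no label of experiment or siRNA. Reads per library of the most abundant kinesins, among them KIF11, KIF23 and KIF5B, were not recovered, so their spread is unknown.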
